A study of Mus musculus with 4 samples.

Results

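Basal duct cells of the mouse salivary gland were taken as the barcodes that held at least 3 UMIs (unique molecular identifiers, each a captured transcript molecule) of the basal keratin genes Krt5 and Krt14 together, 0 UMIs of the contractile genes Acta2, Cnn1 and Myh11, and 0 UMIs of Ptprc, the CD45 gene of white blood cells. The rule found 121 members among 15707 barcodes, a share of 0.77% (95% Clopper-Pearson interval 0.64 to 0.92). The cells were dissociated from submandibular and sublingual glands of female C57BL/6N mice aged 6 to 8 weeks, genotype WT, whose treatment label reads physiological status, and were sequenced as 3′ single-cell libraries. No other genotype, treatment or age was sampled, so the cells were compared only with other cells of the same matrix. The 4 samples carry the same labels and share 1 matrix with 1 barcode suffix, so no member could be assigned to a mouse, a gland or a library. Animals were pooled, and the labels and the study's text differ in how many.

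In ducts of the salivary gland, basal cells sit on the basement membrane under the luminal cells. Their KRT5 and KRT14 filaments are tied to that membrane through hemidesmosomes, and the transcription factor p63, the product of Trp63, maintains the basal state in many epithelia. Myoepithelial cells, which wrap around acini and squeeze saliva out, share these keratins and p63 and add a smooth-muscle contractile apparatus, while basal duct cells have been studied as a reserve for the duct.

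The members were chosen by the measured UMIs of Krt5, Krt14, Acta2, Cnn1, Myh11 and Ptprc, so the values of these genes are given as a description. Of the 15707 barcodes, 197 held at least 3 UMIs of the pair. Contractile transcripts were at 0 in 132 of the 197, and Ptprc was above 0 in 11 of these, which left the 121. Of the other 65 cells with the keratins, 55 held at least 3 contractile UMIs and no Ptprc; these served as the myoepithelial group. Another 3 held 1 or 2 contractile UMIs, and 7 carried Ptprc as well. Krt14 was found in 119 members, Krt5 in 98 and both in 96; 23 members had Krt14 alone and 2 had Krt5 alone. A level, here and below, is the UMIs of a gene summed over a group per 10000 UMIs of that group, with an exact Poisson 95% interval that covers counting error only. Krt14 stood at 10.8 (10.1 to 11.5) and Krt5 at 2.93 (2.59 to 3.3) in the members.

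**Figure D1:**
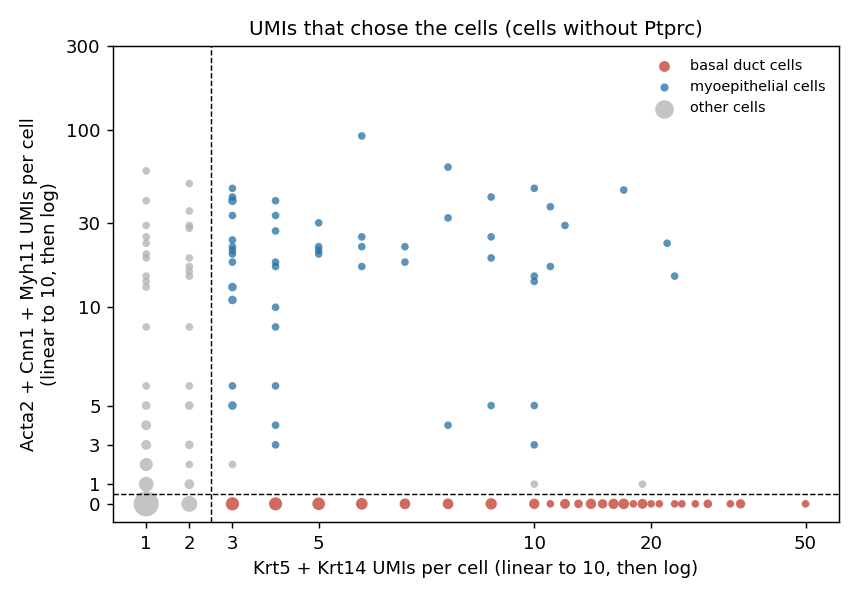
Each bubble counts cells without Ptprc at a given sum of Krt5 and Krt14 UMIs (horizontal axis, linear to 10 and logarithmic above) and of Acta2, Cnn1 and Myh11 UMIs (vertical axis), the bubble area growing with the number of cells, with basal duct cells in red, myoepithelial cells in blue and the rest in grey; dashed lines mark the thresholds. Of the 121 members, 48 lie at a keratin sum of at least 10, and 16 lie at the lower limit of 3.

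The comparison groups were set by rule too. Luminal duct cells were the 836 barcodes with at least 3 UMIs of the luminal keratins Krt7 and Krt19 together and none of Krt5, Krt14, Acta2, Cnn1, Myh11 or Ptprc. Lymphocytes, which should lack keratins, were the 559 barcodes with Ptprc and at least 3 UMIs of the cytotoxic granule gene Nkg7. Because all groups come from 1 sample and cells are not replicates, no test was made: a ratio of levels is given with an exact conditional 95% interval for counting error.

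Members held 924267 UMIs in all. Depth per member ran from 1494 to 44142 UMIs with a median of 5213 (quartiles 3002 and 9008), and the median member had 1861 genes. Luminal duct cells had a median of 3814 UMIs and 1435 genes, and myoepithelial cells 6846 UMIs and 2096 genes. Basal duct cells were thus sampled at a depth between both. Mitochondrial transcripts made up 4.07% of the members' UMIs, against 9.53% in luminal and 2.61% in myoepithelial cells. Transcripts of ribosomal protein genes named Rpl or Rps with a number made up 18.9%, against 8.03% and 9.1%. Both are pooled shares, which also depend on how much of a group is secretory. Medians per cell, in the same order, were 3.65%, 10.3% and 3.04% for mitochondrial transcripts and 22.4%, 9.05% and 12.8% for ribosomal ones. Transcripts of 65 saliva protein genes (secretory transcripts) took 23.9% of the members' UMIs, against 29.3% in luminal cells, 49.4% in myoepithelial cells and 77.3% in the 15586 cells outside the rule. This share was uneven, with a median of 7.04% per member and 15 members above 50%.

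The label was checked against the markers that the rule left unused. Krt17 encodes a keratin of basal and regenerating epithelia. Its level was 4.71 (4.27 to 5.17) in members, 1.95 in myoepithelial cells, 0.0303 in luminal duct cells and 0.049 in lymphocytes. That put Krt17 in basal duct cells 155.2-fold above luminal cells (89.8 to 293.8) and 2.41-fold above myoepithelial cells (1.97 to 2.96), the latter falling to 1.6-fold when secretory transcripts were left out of the totals. Krt17 was detected in 89 of the 121 members, or 73.6%, and in 0.358% of lymphocytes, at median depths of 5213 and 2107 UMIs. After every cell was thinned to 1000 UMIs, which left out 0 cells, the shares were 31.4% and 0.179%.

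Trp63, a low-count transcript, gave 39 UMIs in 31 members, or 25.6% (18.1 to 34.4). No lymphocyte held a UMI of it, at their lower depth, and after thinning 2.48% of members and 0% of lymphocytes had it. Its level of 0.422 (0.3 to 0.577) was 36.2-fold that of luminal cells (14.2 to 117.6). Against myoepithelial cells, at 0.719, the ratio was 0.587 (0.373 to 0.919), or 0.39 without secretory transcripts, so the p63 transcript stood lower in basal duct cells than in their contractile relatives. Against these, 1 of the 2 unused markers was higher by 2-fold and 0 lower (median 0.25), and secretory-free 0 were higher and 1 lower (-0.34). Krt17 or Trp63 was found in 93 members, and all 4 markers together in 25. Neither was seen in 28 members.

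Krt15, a further basal keratin outside the marker set, was found in 63 members (52.1%, against 0.179% of lymphocytes; thinned, 14.0% and 0%). Among the 28 members with neither Krt17 nor Trp63, 12 held it and 16 did not. Its level of 1.75 (1.49 to 2.04) was 53.7-fold that of luminal cells (31.1 to 100.4) and 10.2-fold that of myoepithelial cells (5.55 to 20.8). Krt15 therefore separated members from myoepithelial cells more widely than Krt17 did. In the GRCm38 assembly with GENCODE M21, Krt14 (chr11:100203162-100207548), Krt15 (chr11:100131758-100135928), Krt17 (chr11:100256217-100261029) and the luminal gene Krt19 (chr11:100140810-100148665) lie close together, while Krt5 lies at chr15:101707070-101712898 and Trp63 at chr16:25683763-25892102. Because keratin genes are alike in sequence, all windows of 90 bases in the last 400 bases of their coding transcripts, where 3′ reads fall, were compared with every other gene. For Krt5, Krt14, Krt15, Krt17, Krt7, Krt8, Krt18 and Krt19, 0 were shared.

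At the threshold itself, the values changed by degrees. The 16 members with a keratin sum of exactly 3 had a median of 2702 UMIs, and the 35 cells just outside, with a sum of 2, had 3217. Secretory transcripts took a median of 52.3% in the former and 62.3% in the latter, far above the 7.04% of all members. Krt17 reached 1.61 (0.981 to 2.48) inside and 0.708 (0.413 to 1.13) outside. Trp63 rested on 3 UMIs on either side. Beyond the contractile limit, the 3 cells with 1 or 2 contractile UMIs had a Krt17 level of 0.903 from 1 cell. The 11 cells turned away for Ptprc alone had Krt17 at 3.78 and Cd74, the invariant chain of antigen-presenting cells, at 25.4.

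Basal duct cells also carried the keratins of the simple epithelium. Krt18, the type I partner of KRT8, stood at 19.0 (18.1 to 19.9) in members and 20.9 in luminal duct cells, a ratio of 0.91. Krt8 stood at 11.1 against 10.8, and Epcam, the epithelial adhesion molecule, at 8.29 against 7.12. Krt18 was detected in 92.6% of members and 18.6% of lymphocytes, or 68.6% and 8.41% after thinning. Krt7, which defined the luminal group and so had to be high there, was at 5.36 in members and found in 81.8% of them, against 6.62% of lymphocytes (thinned, 45.5% and 3.76%). Krt7, Krt8 and Krt18 occurred together in 80 members, and Krt8 or Krt18 in 117. The other defining luminal keratin, Krt19, gave 12 UMIs in 6 members. It was sparse in the luminal group as well, found in 12.1% of its cells (3.35% thinned) at a level of 0.359, so that the ratio was 0.361. Split by Krt7, Krt8, Krt18 and Krt19 together, 109 members held at least 3 UMIs and 12 held fewer. Those 12 had a median of 2536 UMIs, of which secretory transcripts took a median of 50.9%, and they still had Krt17 at 4.19.

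The transcriptome as a whole was compared over genes with at least 30 UMIs in both groups together. Genes used in the rule of either group compared were left out, so Krt7 was left out against luminal cells only. Of 8964 genes, 747 (8.33%) were at least 2-fold higher in basal duct cells than in luminal cells and 1043 (11.6%) at least 2-fold lower, with a median log2 ratio of -0.03. Against myoepithelial cells, 4690 genes were compared, of which 746 (15.9%) were higher and 97 (2.07%) lower by that margin, with a median of 0.47. Against all other cells the counts were 10754 (80.7%) and 314 (2.35%) of 13334, with a median of 1.79. These medians move with the secretory share, since a group rich in saliva transcripts has less room for every other gene. With the 65 secretory genes left out of the totals, each ratio was multiplied by 0.929 against luminal cells, by 0.665 against myoepithelial cells and by 0.299 against all others, and the medians became -0.14, -0.12 and 0.05. On that scale 611 genes (6.84%) were higher and 1233 (13.8%) lower than in luminal cells, out of 8935. Against myoepithelial cells the split turned to 184 higher (3.94%) and 355 lower (7.6%) of 4670, and against all others to 1883 (14.2%) and 1824 (13.7%) of 13302. Gene lists below are read beside these medians, since a list can change direction against myoepithelial cells when secretory genes are left out.

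Hemidesmosomes, which fasten a basal cell to the membrane beneath it, were represented by several transcripts. Col17a1, the transmembrane collagen of hemidesmosomes, gave 28 UMIs in 26 members and 0 UMIs in luminal cells. With a group at 0 set at a floor of 3 UMIs, its level of 0.303 was 43.3-fold higher (the exact lower limit was 32.9). It was found in 21.5% of members and 0.358% of lymphocytes, and in 2.48% and 0% after thinning. Myoepithelial cells had it in a larger share, 34.5% (10.9% thinned), and the ratio of levels against them was 0.668 (0.383 to 1.16; secretory-free, 0.444). Dst, whose epithelial form links keratin filaments to the hemidesmosome, was 2.49-fold higher than in luminal cells (1.97 to 3.13). Itgb4, the integrin subunit that binds laminin there, was 2.02-fold higher than in luminal cells (1.6 to 2.52) but 1.87-fold on the secretory-free scale. Plec, Cd151 and Itga6, which complete the structure, were within 2-fold of luminal cells. Of the 5 hemidesmosome genes with enough UMIs for the comparison, Col17a1 not among them, 2 were higher and 0 lower, with a median log2 ratio of 0.29. Against myoepithelial cells 2 of 6 were higher and 0 lower, with a median of 0.54 (secretory-free, 1 and 1, and -0.05).

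Laminins are the ligands that hemidesmosomes grip. Lama3, an alpha chain gene, stood at 0.27 in basal duct cells against 0.00933 in luminal cells (29.0-fold, 10.0 to 114.6). Lamb3, a beta chain gene, was 2.24-fold higher (1.53 to 3.25). Collagen IV, the sheet-forming collagen, followed, with Col4a1 6.59-fold (4.27 to 10.3) and Col4a2 4.44-fold (2.36 to 8.33) above luminal cells. Sparc, a collagen-binding matricellular protein, was 8.35-fold higher (5.94 to 11.8). Of the 10 basement membrane genes with enough UMIs, Lama3 not among them, 7 were higher and 0 lower, with a median of 1.64. Against myoepithelial cells 2 of 8 were lower, with a median of -0.3 (secretory-free, 3 lower, and -0.89). Sparc had a ratio of 0.303 there and Col4a2 of 0.411.

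Adhesion between neighbouring cells did not follow this pattern. All 9 desmosome genes compared were within 2-fold of luminal cells and of myoepithelial cells, with medians of -0.03 and 0.5, close to all genes in either case; the latter became -0.08 on the secretory-free scale. Perp, a p63 target and desmosome component, stood at 3.15 against 1.71 in luminal cells. The wider list of basal keratins and adhesion genes had 5 of 9 higher than in luminal cells and 0 lower, with a median of 1.01. Besides Krt15 and Itgb4, these were Snai2, a transcription factor of the basal layer (31.3-fold, 10.9 to 123.1), Dapl1, a gene of epithelial differentiation (5.39-fold, 4.0 to 7.28), and the hyaluronan receptor gene Cd44 (3.51-fold, 2.0 to 6.09). Against myoepithelial cells 3 of 8 were higher and 0 lower, with a median of 0.19 (secretory-free, 2 and 0, and -0.39). Cd44 appeared in 16.5% of members and 10.4% of lymphocytes, and after thinning in 1.65% and 3.94%, so its share was no higher than in these white cells, which make it.

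Signalling genes were read by role, starting with NOTCH. Among ligands, Jag2 stood at 0.4 in members and 0.0117 in luminal cells (34.3-fold, 13.5 to 111.9), and Jag1 was 5.8-fold higher (2.85 to 12). Among receptors, Notch1 was 6.71-fold higher (4.36 to 10.4), whereas Notch2 had a ratio of 1.07. The target gene Hes1 differed little, at 3.54 against 2.8. Ligands and a receptor thus stood above luminal cells while this target was within 2-fold, and 3 of 6 NOTCH genes were higher with a median of 1.54. Against myoepithelial cells 0 of 5 passed 2-fold, and Jag2 had a ratio of 1.02, with a list median of 0.21. Without secretory transcripts the ratio was 0.681 and the median -0.38.

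WNT genes split by ligand. Wnt10a, a ligand of epidermal appendages, was 35.9-fold higher than in luminal cells (12.7 to 140.1) and 10.7-fold higher than in myoepithelial cells, where it rested on 2 UMIs (2.73 to 92.5). Wnt4 ran the other way, at 0.822 against 2.16 in luminal cells. Among receptors, Fzd2 was 30.1-fold higher than in luminal cells (10.5 to 118.8), and Lgr4, which binds R-spondins, 3.24-fold (2.44 to 4.29). Lef1, the transcription factor that acts with beta-catenin, was 32.5-fold higher than in luminal cells (12.7 to 106.1) and 4.84-fold higher than in myoepithelial cells (1.89 to 15.8). Lgr5 was at 0 in members, luminal and myoepithelial cells alike. The counts were 5 higher and 1 lower of 13 against luminal cells (median 0.82; secretory-free, 5 and 2), and 3 higher and 2 lower of 10 against myoepithelial cells (0.53, and -0.06 secretory-free).

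**Figure D2:**
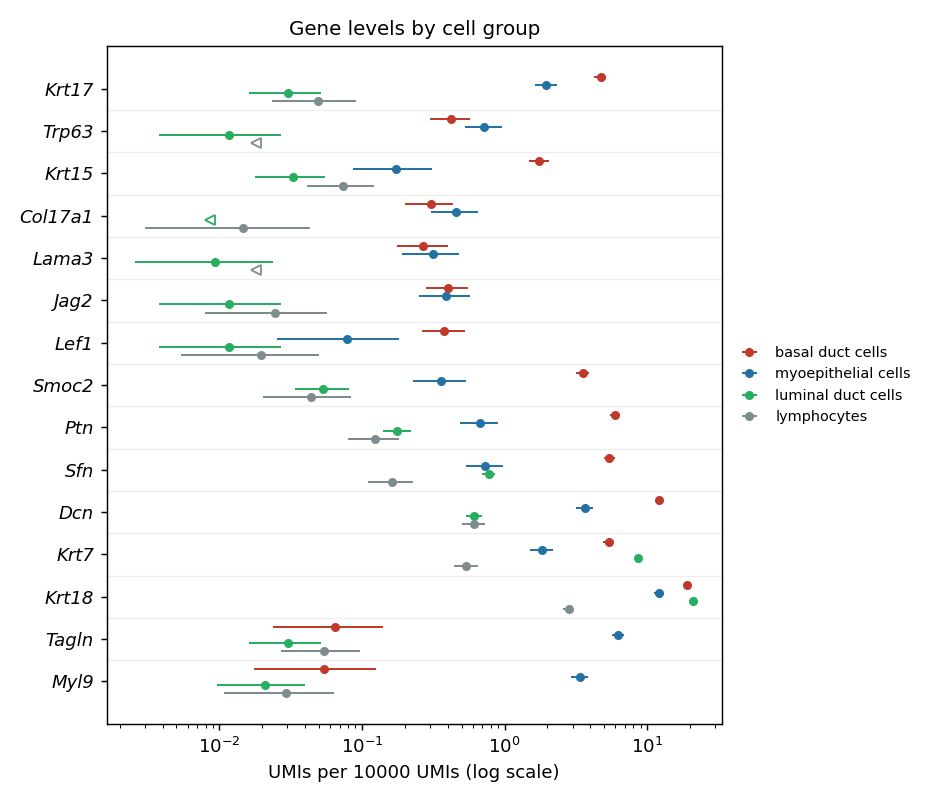
Levels of 15 genes (UMIs per 10000 UMIs, logarithmic axis) in basal duct cells, myoepithelial cells, luminal duct cells and lymphocytes, with bars for the 95% Poisson interval and open triangles for the upper bound where a group had 0 UMIs. Krt17, Krt15, Ptn and Smoc2 lie highest in basal duct cells, Krt18 is alike in basal (19.0) and luminal (20.9) cells, and Tagln and Myl9 lie highest in myoepithelial cells (6.27 and 3.38).

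Growth factor genes differed in part. Egfr, the receptor for EGF, was 3.09-fold higher than in luminal cells (2.04 to 4.64), and Hbegf, a ligand for it, 2.18-fold (1.71 to 2.77). Fgfr1 was 5.52-fold higher (2.97 to 10.4), and Fgfbp1, a carrier that releases FGFs from matrix, 3.52-fold (2.5 to 4.94). The ligand gene Fgf10, by contrast, stood at 0.0541 against 0.737 in luminal cells. Taken over the EGF and FGF list, 4 of 12 were higher and 2 lower (median 0.34); against myoepithelial cells 3 of 8 were higher and 0 lower (0.67; secretory-free, 2 and 0, and 0.08). Fgfbp1 was the widest of these, at 10.9-fold above myoepithelial cells (4.05 to 41.2).

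For TGF-beta and BMP genes, 0 of 9 were higher than in luminal cells and 1 was lower, the BMP target Id1 with 3 UMIs in members (ratio 0.296, 0.0589 to 0.92). Against myoepithelial cells 2 of 8 were higher and 1 lower, with a median of 0.3 (secretory-free, 1 and 2, and -0.29). Of 5 YAP genes, only Ccn1, an immediate target that encodes a matrix signalling protein, passed 2-fold, at 4.99 against 1.0 in luminal cells; the list median was 0.82. YAP genes against myoepithelial cells gave 2 higher and 1 lower of 6, and 0 and 2 without secretory transcripts. Of 5 genes of TNF receptor signalling, 4 were higher and 1 lower than in luminal cells (median 1.78; secretory-free, 3 and 1). They included Nfkbia, the NF-kappaB inhibitor and target, at 5.77 (3.48-fold, 3.1 to 3.89), and Tnfrsf19, a receptor related to that of ectodysplasin (6.55-fold, 3.37 to 13.0). Edar itself, the ectodysplasin receptor, gave 11 UMIs in 10 members and 0 in luminal, myoepithelial and lymphocyte groups, too few for the comparison of all genes. Against myoepithelial cells 2 of 3 TNF receptor genes were higher, and 0 on the secretory-free scale.

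Immune signals formed a mixed set. Il33, an alarmin stored in nuclei of barrier epithelia, was 29.7-fold higher than in luminal cells (11.5 to 97.6). Myoepithelial cells had 0 UMIs of Il33, which made it 7.38-fold higher at the floor of 3 UMIs (exact lower limit 5.66). Cxcl1, a neutrophil attractant, stood at 1.74 against 0.25 in luminal cells (6.98-fold, 5.43 to 9.0). Against myoepithelial cells its ratio was only 1.25 (0.96 to 1.64), or 0.832 secretory-free. Both proteins act on immune cells once released. Over the list, 5 of 16 genes were higher and 0 lower than in luminal cells (median 0.79; secretory-free, 4 of 15), and 3 of 14 higher and 2 lower than in myoepithelial cells (0.5, and -0.26 without secretory transcripts).

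Genes were also ranked by their ratio against luminal cells, without regard to list. The 15 largest ratios belonged to Ccn4, Lgals7, Krt17, Vcan, Pclaf, Il18r1, Ifi202b, Pltp, Robo2, Smoc2, Aldh3a1, Krt15, Ucma, Angptl2 and Prelp, and each stayed above 2-fold without secretory transcripts. Ccn4, a WNT-induced matricellular gene, had 68 UMIs in 43 members and 1 UMI in luminal cells (315.3-fold, 54.7 to 12636). Lgals7, the galectin of stratified epithelia, stood at 3.35 (179.7-fold, 90.1 to 419.9) and was found in 66.9% of members against 0.716% of lymphocytes (thinned, 25.6% and 0.358%). Myoepithelial cells had Lgals7 too, in 56.4% (18.2% thinned), and the ratio against them was 2.06 (1.65 to 2.6; secretory-free, 1.37). Robo2, a receptor for SLIT guidance cues, had 45 UMIs against 0 and was 69.6-fold higher at the floor of 3 UMIs (exact lower limit 54.3). Smoc2, a calcium-binding matricellular protein, was 65.7-fold higher (43.0 to 105.2), present in 70.2% of members and 0.716% of lymphocytes (thinned, 30.6% and 0.358%). Several of the rest also act outside the cell: Vcan and Prelp encode matrix proteoglycans, Ucma a secreted matrix protein, Angptl2 a secreted glycoprotein and Pltp a lipid transfer protein. Aldh3a1, an aldehyde dehydrogenase, was 60.3-fold higher (28.1 to 154.2) and found in 43.8% of members against 0.358% of lymphocytes (thinned, 9.92% and 0%).

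Genes of luminal specialisation were low in most cases. Among 16 genes of specialised duct cells, 11 were lower and 3 higher in basal duct cells, with a median of -3.09 (secretory-free, 7 and 3 of 12, since the kallikreins are then left out). Foxi1 and Ascl3, transcription factors of ionocytes, stood at 0.162 against 2.5 and 0.26 against 3.0. Klk1, the kallikrein of striated and granular ducts, stood at 54.1 against 522.6, a ratio of 0.104 (0.101 to 0.106), and in lymphocytes, which do not make it, at 50.6. Egf had a ratio of 0.0607 (0.0322 to 0.104). The genes that ran higher were Esp4, which encodes a secreted peptide (3.57-fold, 2.99 to 4.25), Slc9a3, a sodium-proton exchanger (3.32-fold, 2.19 to 5.0), and Slc13a2, a dicarboxylate transporter (2.54-fold, 1.46 to 4.32). Among the 15 smallest ratios of all genes were those of Rcan2, 1700019D03Rik, Klk1b21, Kcnj3, Hspb7, Mup4, Klk1b4, Klk1b24, Dmrt2, Syn2, Bsnd, Klk1b22 and Atp6v1g3. Rcan2, a calcineurin regulator, had 2 UMIs in members and 534 in luminal cells (ratio 0.0174, 0.0021 to 0.063). Bsnd, a chloride channel subunit, and Atp6v1g3, a proton pump subunit, are further genes of ion-transporting duct cells. General luminal genes were not lower: of 13, only Elf3, an epithelial transcription factor, passed 2-fold, at 1.11 against 2.65, and the median was -0.11.

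Genes linked to salivary progenitors gave no common direction. Kit, the stem cell factor receptor used to sort duct progenitors, was lower than in luminal cells, at 0.411 against 1.05, while its ligand gene Kitl was higher, at 0.389 against 0.161. Sox9 differed little, at 3.16 against 3.81. Of 9 such genes 2 were higher, Aldh3a1 and Kitl, and 1 lower, with a median of -0.11. Against myoepithelial cells 2 of 8 were higher and 2 lower with a median of 0.06 (secretory-free, 2 and 3, and -0.53), Aldh3a1 at 7.0-fold (3.53 to 15.8) and Ly6a, which encodes SCA-1, at 6.26-fold (4.13 to 9.87) on the higher side, and Kitl and Etv1 on the lower.

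Against myoepithelial cells, the contractile apparatus marked the difference also in genes that the rule left unused. Tagln, an actin-binding protein of smooth muscle, stood at 0.0649 in members and 6.27 in myoepithelial cells, 96.6-fold lower. Myl9, a regulatory myosin light chain, was 62.4-fold lower, and the tropomyosin gene Tpm2 30.3-fold lower. Lmod1, an actin nucleator of smooth muscle, had 0 UMIs in members and was 15.9-fold lower at the floor of 3 UMIs (exact lower limit 12.2). Of 9 contractile genes 6 were lower and 0 higher, with a median of -3.11 (secretory-free, 8 lower). Summed over the 12 listed genes that the rule left unused, the level was 4.67 in members, 26.2 in myoepithelial and 2.09 in luminal cells, with Tpm1 alone at 2.95 in members. Against luminal cells 4 of 7 contractile genes were higher (Cnn2, Mylk, Tpm1 and Tpm2) and 1 lower, with a median of 1.33. Mylk, the kinase that switches on smooth muscle myosin, lay between, at 0.368 in members, 3.17 in myoepithelial cells and 0.0117 in luminal cells. Only 8 members held at least 2 UMIs of Tagln, Mylk, Myl9 and Actg2 together. They had a median depth of 17263 UMIs, and all 8 were among the 109 with luminal keratins.

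The 15 smallest ratios against myoepithelial cells were those of Pcp4, Tagln, Cck, Ecrg4, Postn, Tspan2, Myl9, Sfrp1, Pgf, Tpm2, Pmp22, Gas1, Ckb, Meg3 and Lmod1. Pcp4, a calmodulin regulator, had 2 UMIs in members against 222 (ratio 0.00623, 0.00075 to 0.0228). Ecrg4, a secreted peptide precursor, had 0 against 149 and was 71.8-fold lower at the floor of 3 UMIs (exact lower limit 57.7). At the other end stood Fhl2, Ube2c, Pclaf, Megf6, Cks2, Il18r1, Pcdh19, Rcan1, Gpx2, Sprr1a, Emp1, Duox2, Gm49708, Bok and Fgfbp1, all of which stayed above 2-fold without secretory transcripts. Gpx2, a glutathione peroxidase of epithelia, was 13.5-fold higher (7.18 to 28.6), and Pcdh19, an adhesion protocadherin, 13.7-fold higher (5.13 to 51.4). Several of the others rest on few cells, such as Duox2, a peroxide-generating oxidase, whose 50 UMIs came from 7 members. Luminal genes were higher than in myoepithelial cells for 3 of 13, namely Krt7, Cldn4 and Wfdc2, with a median of 0.64 (secretory-free, 2 higher and 1 lower). Specialised duct genes gave 5 higher and 1 lower of 13 (median 0.48), and without secretory transcripts 0 higher and 3 lower of 9 (-0.91).

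Genes of stratified epithelium were found in part. Sfn, which encodes 14-3-3 sigma, stood at 5.44 (4.98 to 5.94), 7.05-fold above luminal cells (6.12 to 8.12) and 7.41-fold above myoepithelial cells (5.49 to 10.2). It was found in 81.0% of members and 4.47% of lymphocytes, or 40.5% and 1.07% after thinning. Klf5, a transcription factor of proliferating epithelia, was 2.72-fold above luminal cells (2.25 to 3.28). Sprr1a, a cornified envelope precursor, had 125 UMIs in 31 members, a level of 1.35 that was 2.45-fold above luminal cells (1.95 to 3.05) and 12.4-fold above myoepithelial cells (5.82 to 31.4). Of 4 comparable genes 3 were higher than in luminal cells (median 1.37) and 3 than in myoepithelial cells (2.42; secretory-free, 3 higher and 1 lower). Of the 17 genes on the list, 8 had 0 UMIs in every member, among them the keratin genes Krt4 and Krt13 and the envelope genes Ivl and Lor. Krt10 and Krt1, keratins of differentiated layers too, had 15 UMIs in 15 members and 3 UMIs in 3 members, and Krt10 had a ratio of 0.818 against luminal cells (0.439 to 1.43).

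The members carried transcripts of secreted matrix and growth factor genes as well. Dcn, which encodes the proteoglycan decorin and is better known from fibroblasts, stood at 12.2 (11.5 to 13.0), 20-fold above luminal cells (17.5 to 23.0). It was 3.36-fold above myoepithelial cells (2.91 to 3.88), or 2.23-fold without secretory transcripts. It was found in 78.5% of members and 2.33% of lymphocytes, or 52.9% and 0.894% after thinning. Myoepithelial cells had Dcn in a larger share, 90.9%, but in 34.5% after thinning. Of the other fibroblast markers, Col1a1 had 5 UMIs in 2 members, Pdgfra 1 UMI and Lum 6 UMIs in 2 members. Against luminal cells, Col1a2 had a ratio of 1.85 (0.97 to 3.39), Col3a1 of 1.25 (0.556 to 2.57) and Lum of 0.869 (0.297 to 2.11). In 92 members Dcn occurred with Col1a1, Col3a1, Lum, Pdgfra and Dpt all at 0, a check that did not include Col1a2. Summed, the fibroblast list stood at 12.7 in members, nearly all of it Dcn, against 3.8 in myoepithelial cells and 0.959 in luminal cells. Of 4 comparable genes, 1 was higher than in luminal cells. Ptn, the heparin-binding growth factor pleiotrophin, stood at 5.98 (5.49 to 6.5), 33.7-fold above luminal cells (26.5 to 43.5) and 8.9-fold above myoepithelial cells (6.52 to 12.4). Ptn was found in 75.2% of members and 0.716% of lymphocytes, or 44.6% and 0.358% after thinning.

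Against all other cells together, the 15 largest ratios were those of Ifi202b, Gpha2, Krt15, Ucma, Ccn4, Tnc, Krt17, Aldh3a1, Wnt10a, Lgals7, Defb1, Ptn, Robo2, Bcat1 and Lef1. Ratios ran from 228.4 for Ifi202b, an interferon-inducible gene with 34 UMIs in 13 members, down to 92.2 for Lef1. Krt15 and Krt17 were at 172.7-fold (136.0 to 219.8) and 140.5-fold (122.5 to 161.1), and at 51.6-fold and 42-fold without secretory transcripts. All 15 stayed above 2-fold on that scale. The lowest were Hbb-bs, Igkc, Mup4, Xcl1, Rac2, Igha, Fabp4, Ctla2a, Gzma, Il2rb, Nkg7, Gzmc, Muc19, Neurl3 and Hba-a1, which mostly belong to blood cells, plasma cells and lymphocytes.

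Markers of other cell types were summed in the members as well. Lymphoid genes, without the Ptprc and Nkg7 used in the rules, summed to 0.444 in members, 0.177 in luminal, 0.453 in myoepithelial cells and 29.1 in lymphocytes, with 5 of 8 genes at 0 in members; the lymphocytes had still been chosen by such markers. Myeloid genes summed to 6.51, against 2.63 in myoepithelial cells, 2.87 in luminal cells and 15.8 in all other cells. Against all other cells 0 of 11 were higher and 8 lower, a median of -1.26 (secretory-free, 11 lower). Against luminal cells 4 of 8 (C1qa, C1qb, C1qc and Cd74) were higher, a median of 1.05 (secretory-free, 3). Cd74 was the most abundant, found in 37.2% of members, 11.3% of lymphocytes and 30.4% of all other cells (thinned, 14.0%, 5.72% and 18.2%). C1qa came from 10 members. Against myoepithelial cells 5 of 7 myeloid genes were higher, 2 on the secretory-free scale. Endothelial genes summed to 0.173, pericyte genes to 0.216, Schwann genes to 0.822 and erythroid genes to 0.0216. In luminal cells these sums were 0.378, 0.658, 0.765 and 0.0537, with both comparable endothelial genes and 2 of 3 pericyte genes lower in basal duct cells, and neither Schwann gene past 2-fold. The part of cells captured together in 1 droplet in these sums was not tested.

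Saliva transcripts were present in every member. Mucl2, the most abundant secretory transcript, was detected in all members and in all lymphocytes, also after thinning, so its presence says nothing of its source. Serous acinar genes summed to 2103 in members, 4608 in myoepithelial cells, 1933 in luminal cells and 3515 in lymphocytes. Of 11 serous genes 0 passed 2-fold against luminal cells (median 0.15), and of 10 against myoepithelial cells 1 was higher and 6 lower (median -1.05). Demilune and mucous genes summed to 228.8, against 376.6 in luminal cells, with 2 of 8 lower and a median of -0.76.

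Proliferation was seen in few members. Mki67 or Top2a, genes of dividing cells, had a UMI in 14 members, and both in 3, all of which lay in the main cluster described below. Mki67 was found in 5.79% of members and 5.72% of lymphocytes, and Top2a in 8.26% and 9.48%. After thinning each was in 0.826% of members, from 1 cell, against 2.86% (Mki67) and 4.83% (Top2a) of lymphocytes. The shares were thus close to those of lymphocytes, which divide too, and lower after thinning. Among the 836 luminal cells 3 held Mki67 and 6 held Top2a. The cell cycle list summed to 3.03 in members, 0.8 in luminal cells, 0.5 in myoepithelial cells and 3.72 in lymphocytes. Of 6 genes, 5 were higher than in luminal cells (median 2.02, and 4 genes secretory-free), among them Ube2c, whose 30 UMIs came from 5 members. Pcna, which clamps DNA polymerase, was the most widely detected, in 58 members. It was found in 47.9% of members and 18.8% of lymphocytes, or 14.0% and 9.3% after thinning. Its level was 1.02 against 0.313 in myoepithelial cells (3.25-fold, 1.99 to 5.57, and 2.16-fold secretory-free). Apart from Pcna and Ube2c, no gene of the list had enough UMIs for that comparison.

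Immediate early genes, which rise within minutes of a stimulus such as dissociation, were abundant in the 3 groups compared here. Their sum was 200.1 in basal duct cells, 179.0 in luminal and 162.9 in myoepithelial cells, against 51.7 in lymphocytes and 41 in all other cells. Over the latter 15 of 16 genes were higher in members, as were 80.7% of all genes, and on the secretory-free scale 2 were higher and 1 lower. None of 16 passed 2-fold against luminal cells (median 0.3) or myoepithelial cells (0.34, and -0.25 secretory-free). Atf3, a stress-induced transcription factor, stood at 33.1. Heat shock genes summed to 67.1, 58.2 and 53.3 in basal, luminal and myoepithelial cells, and 0 of 11 passed 2-fold against either (medians 0.33 and 0.38; without secretory transcripts 1 was lower than in myoepithelial cells, with a median of -0.21). The part of the enzyme treatment in these levels was not tested.

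How alike the members were was read from clusters of all 15707 cells, made without the rule although from the same genes. Of 24 clusters, 1 held 103 of the 121 members, or 85.1%. That main cluster had 176 cells, so members made up 58.5% of it; 13 of its cells were in the luminal group and 2 in the myoepithelial group. The other 18 members lay in 10 clusters, with at most 4 in any of them, and 3 lay in the cluster that held 48 of the 55 myoepithelial cells. Secretory transcripts took a median of 6.05% in members of the main cluster and 43.7% in those elsewhere. The 18 held 48.7% of all the members' secretory UMIs.

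Basal genes stood lower there as a share of all UMIs. Krt14 stood at 12.8 in main-cluster members and 2.83 in the 18 elsewhere, Krt5 at 3.31 and 1.42, and Krt17 at 5.49 and 1.53. Krt15 stood at 2.16 and 0.109, and Trp63 at 0.5 and 0.109, the latter from 2 UMIs. Dcn fell from 14.7 to 2.4, Sfn from 6.55 to 0.981, Ptn from 7.22 to 0.981 and Lgals7 from 4.12 to 0.272. Krt18 stood at 21.8 and 7.68, whereas Mucl2 rose from 829.6 to 3424 and Klk1 from 41.5 to 105. Myeloid genes summed to 5.36 in the main cluster and 11.2 elsewhere, and immediate early genes to 227.2 and 90.8. The denominators differ as well: secretory transcripts took 15.3% of the pooled UMIs in the main cluster and 58.7% elsewhere. Per 10000 UMIs that were not secretory, Krt5 was nearly alike, at 3.91 and 3.43, while Krt14 stood at 15.1 and 6.86, Krt17 at 6.49 and 3.69, Krt15 at 2.55 and 0.264, and Trp63 at 0.59 and 0.264. Dcn was at 17.3 and 5.8 on this scale, Sfn at 7.73 and 2.37, Ptn at 8.53 and 2.37, and Lgals7 at 4.86 and 0.659. Krt18, at 25.7 and 18.6, and the immediate early sum, at 268.3 and 219.7, came closer together, whereas the myeloid sum moved further apart, at 6.33 and 27. Of the 28 members with neither Krt17 nor Trp63, 20 lay in the main cluster and 8 elsewhere. The 103 alone, compared afterwards as a choice made after the data were seen, gave 1005 genes higher and 957 lower than luminal cells.

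**Figure D3:**
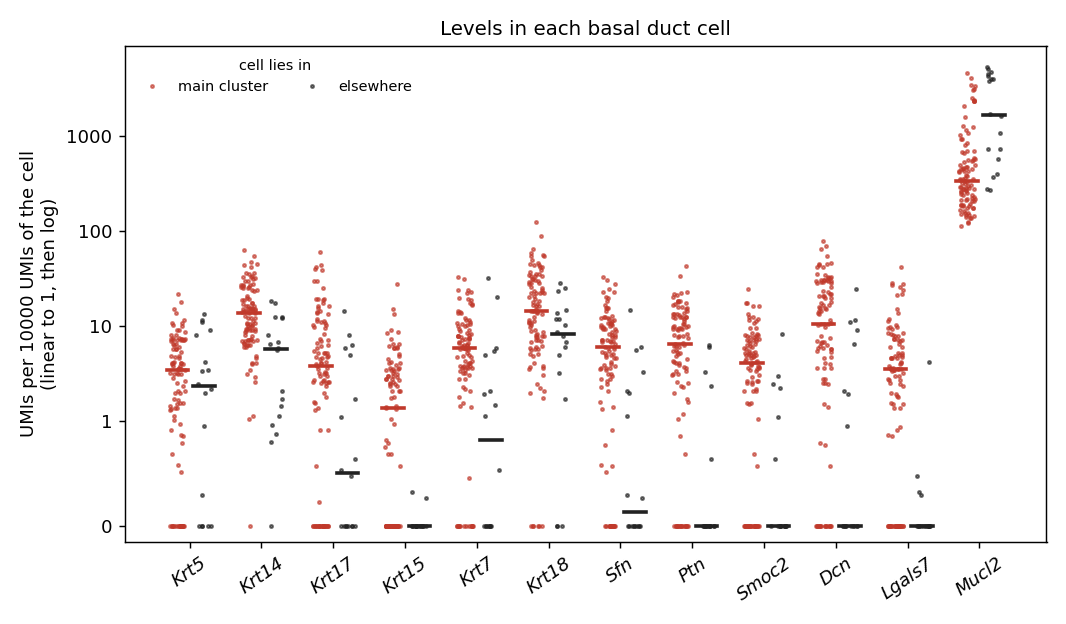
Levels per member (UMIs per 10000 UMIs of the cell) of 12 genes, with red points for the 103 members in the main cluster, black points for the 18 elsewhere and bars for medians. Krt17, Krt15, Sfn, Ptn, Smoc2, Dcn and Lgals7 lie lower and Mucl2 lies higher in the members elsewhere.

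The members were also split by depth. On either side of the median, the 60 shallower members (1494 to 5165 UMIs) and the 61 deeper members (5213 to 44142 UMIs) were nearly alike in cluster, with 49 and 54 in the main cluster. Krt5 and Krt14 cannot be compared between them, since a fixed minimum of 3 UMIs asks for a higher level in a shallower cell. Krt17, which the rule did not use, was higher in the shallower cells, at 8.72 against 3.64, as were Sfn, at 7.58 against 4.87, and Krt15, at 2.27 against 1.62. Trp63 differed less, at 0.464 against 0.411, as did Dcn, at 13.7 against 11.9. Krt18 ran the other way, at 13.7 against 20.4, and so did Mucl2, at 905.9 against 1461. The reason for these differences was not tested. Among single members, the Krt17 level had a median of 3.2 and a maximum of 59.7, and the Dcn level a median of 7.77 and a maximum of 79.0.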

How the data were processed

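The authors deposited 1 matrix of UMI counts for 32285 genes and 15707 barcodes, made from all 4 samples with Cell Ranger 6.0.1 on mm10 according to their processing notes; the count of a gene in a barcode is a whole number, with no normalization and no sample or mouse given per cell. The matrix holds 125100595 UMIs, with a median of 2608 per barcode (1374 to 141509). No barcode was removed. Members, groups and gene lists were chosen with earlier results of these data known. Groups were set by UMI thresholds, and levels, shares and ratios were computed from pooled UMIs with exact Poisson, Clopper-Pearson and conditional binomial 95% intervals in Python 3.11.15 with NumPy 2.4.6 and SciPy 1.17.1. Genes with at least 30 UMIs in both groups together were compared, apart from genes used in the rule of either group compared. Called means a ratio of at least 2 or at most 0.5, and a group at 0 was set at a floor of 3 UMIs over the group. A list of genes is described by its counts and median, for 29 lists of 351 genes. Named genes are those of the rules and lists, the 15 with the largest and the 15 with the smallest ratio in each of the 3 comparisons, and the 20 most abundant in the members that are not mitochondrial, secretory or named Rpl or Rps with a number; the ribosomal protein genes Rplp0, Rplp1, Rpsa and Fau do not match that name rule and stayed in. Clusters came from Seurat 5.3.0 in R 4.3.3 (LogNormalize, 2000 variable genes, 20 principal components, resolution 0.5). Scrublet in scanpy 1.11.5 called 0 doublets, so none were removed, and an alternative dropped the top 10% of cells by doublet score, beside other thresholds, filters, denominators, depths and cluster settings. Gene positions are from GENCODE M21. The interval code was checked on simulated data. No test was made, since the samples cannot be separated.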

Additional observations from a re-analysis of the deposited data

How the results depend on the processing

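Of 80 values recomputed under alternatives, 53 stayed within their limit (1.5 times a count, or the 95% interval of a share) and 27 did not. With every cell thinned to 1000 UMIs before the rule was applied, 42 members were left of 121, and the genes past 2-fold were 115 higher and 178 lower against luminal cells, 65 and 19 against myoepithelial cells, and 125 lower against all other cells; fewer UMIs leave fewer cells and fewer genes to compare. The other 6 settings gave 90 to 156 members. A minimum of 10 UMIs per gene in place of 30 gave 1271 higher against luminal cells and 1808 higher and 379 lower against myoepithelial cells, and a minimum of 100 gave 315 and 522 against luminal and 235 and 31 against myoepithelial cells, since the filter sets how many genes are compared. Without cells over 50% secretory, the counts were 239 higher and 267 lower against myoepithelial and 1467 and 1611 against all other cells. With each cell weighted equally they were 408 and 467, and 5809 and 1158; for both settings the cause was not tested. With secretory transcripts out of the denominator they were 184 and 355, and 1883 and 1824, which follows from the constant by which every ratio is then multiplied. The 8 members with at least 2 UMIs of other contractile genes became 30 at 1 UMI and 1 at 5 UMIs, while the split by luminal keratins gave 118 and 96 members. Between 101 and 103 members shared a cluster under 3 other cluster settings. Restricting members to the main cluster was chosen after seeing the data and gave 1046 higher and 93 lower against myoepithelial cells and 11137 and 322 against all others. Of the 30 named genes per comparison, at least 17, 12 and 20 stayed past 2-fold against luminal, myoepithelial and all other cells under the settings tried. Levels of 40 genes were recomputed as well. Thinning moved 31 of them out of their interval and 18 by over 1.5 times. Krt17 went from 4.71 to 9.76, Il33 changed 4.13 times, and Lamb3 and Cdh3 fell to 0. Krt14 went from 10.8 to 34.8, but the rule itself sets such a rise. A member must then hold at least 3 UMIs of Krt5 and Krt14 among 1000, so these 2 levels say nothing of stability. The secretory-free denominator moved 28 out of their interval, as did leaving out cells over 50% secretory, where Mucl2 changed 3.2 times; equal weights moved 23, 4 of them by over 1.5 times, the main cluster alone 20, either other keratin threshold 19 and Scrublet 1. Depth limits the low-count genes: Trp63 rests on 39 UMIs, and a gene at 0 may lie below detection at a median of 5213 UMIs per member. No paired analysis was possible because no mouse, gland or library is given per cell, so spread between animals is unknown.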

Other observations

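With mitochondrial and secretory genes and genes named Rpl or Rps with a number left out, the members' most abundant transcripts were Malat1 (121.4 UMIs per 10000), Wfdc18 (69.1), Actg1 (38.4), Fau (36.9), Rplp1 (36.8) and Eef1a1 (35.1). Fau and Rplp1, like Rplp0 (33.4) and Rpsa (26.8), are ribosomal protein genes that the name rule did not catch. They were followed further down by Mt1 (27.3), Fos (24.2), Jun (20.3), Hsp90ab1 (19.8) and Krt18 (19.0). Wfdc18, a small secreted protein gene, was uneven among members, with a median level of 6.07 and a maximum of 333.8, and 10 members held 50.5% of its UMIs. Smgc, which encodes a submandibular gland secreted protein, was more uneven still, with 97.7% of its UMIs in 10 members. For Mucl2 the share of the top 10 members was 74.9%, and the lowest member held 62 UMIs.

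The main cluster also held 73 cells outside the rule. Their sum of Krt5 and Krt14 was 0 in 26, 1 in 17, 2 in 17 and at least 3 in 13, and contractile transcripts were found in 10 and Ptprc in 10. Pooled, they had Krt17 at 2.88, Trp63 at 0.48, Krt15 at 2.08, Dcn at 12.4, Ptn at 9.81 and Krt18 at 25.4, against 5.49, 0.5, 2.16, 14.7, 7.22 and 21.8 in the 103 members there.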
